A study of Mus musculus with 14 samples.

Results

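The genes described here are 6 transcription factors of the liver and foregut, Hnf4a, Hhex, Prox1, Onecut1, Nr5a2 and Cebpa, chosen by symbol from the 24054 genes in the tables. A low-input RNA sequencing protocol was applied to mouse cells, giving 14 libraries of 6 groups. With 2 libraries each, d0con and d0ko were embryonic stem (ES) cells cultured on red fluorescent feeder fibroblasts without LIF and sorted as Cherry-negative. With 3 libraries each, d3con and d3ko were cells sorted as Venus-positive after 3 days on Wnt3a feeder cells with 12 ng/ml Activin A, a treatment that directs ES cells towards endoderm. In the con groups (Foxa2-Venus-KO/+) a Venus reporter replaced the coding region of 1 Foxa2 allele, so the controls were heterozygous, and in the ko groups (Foxa2-Venus-KO/Foxa2-Venus-KO) it replaced both. Each genotype was represented by 2 ES cell clones. In each day 3 group replicates 1 and 3 came from the same clone. The main p-values treat these libraries as separate and so do not measure the spread between clones. The 2 libraries of d2-FVFn and the 2 of d2-FVFp were Venus-negative and Venus-positive cells of a single TetON-Foxa2-Venus ES line, T119, that also carries a Sox17-Cherry fusion on both alleles. They had received 40 ng/ml doxycycline for 48 h without feeders in LIF and serum, so both groups had the drug and the medium that maintains pluripotency. For none of the groups did the labels say that libraries were separate cultures, and the p-values then measure only the spread between these libraries.

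These factors form part of the network that turns foregut endoderm into liver. Hhex is a homeobox factor of the anterior endoderm that is needed for the liver bud to grow. Prox1 is a homeobox factor that lets early liver cells leave that bud. Hnf4a is a nuclear receptor that holds hepatocyte identity and is also made in the extraembryonic visceral endoderm. Onecut1 (HNF6) acts in the early liver, bile ducts and pancreas, and Cebpa drives the metabolic genes of maturing hepatocytes. Nr5a2 (LRH-1) is a nuclear receptor with roles in both ES cells, where it activates the pluripotency gene Pou5f1, and the adult liver and pancreas. Foxa2 is a pioneer factor, able to bind its sites in closed chromatin, and acts upstream of several of them in the embryo.

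The sequences before the start sites were read beside the transcripts that were counted. All positions are those of GRCm38, and the sequences are those of RefSeq on GRCm38.p6, where the 6 genes had 9 windows of 250 bases before a start. Hnf4a (chromosome 2, 163506811 to 163572907) has an upstream and a downstream start. Of its 3 curated transcripts only 1 was counted, and its annotated start is the downstream one. Reads found only in the upstream first exon were not counted, and the Hnf4a values do not tell which start was in use. Hhex lies on chromosome 19 (37434841 to 37440731), Prox1 on chromosome 1 (190118035 to 190170827) and Nr5a2 on chromosome 1 (136842562 to 136960448). The stretches below are shown because these 4 genes carry the results, each is printed 5′ to 3′ on the strand of the gene, and bases that the GENCODE annotation puts in an untranslated region were left out. Capitals mark matches on either strand to short words that known factors prefer. For forkhead factors such as Foxa2 the first word was TGTTTAC, and a second forkhead word was TGTTTGC. The GATA factors were represented by AGATAA, Hnf4a itself by CAAAGTC and Nr5a2 by AAGGTCA. The word for C/EBP proteins was TTGCNNAA, where N is any base, the word for Onecut factors was ATCAATA, and that of the TATA box was TATAAA. The named windows are Hnf4a upstream start (chr2:163506607-163506807), Hnf4a downstream start (chr2:163546905-163547154), Hhex (chr19:37434591-37434809), Prox1 downstream start (chr1:190169516-190169765) and Nr5a2 upstream start (chr1:136960449-136960698).
Hnf4a upstream start: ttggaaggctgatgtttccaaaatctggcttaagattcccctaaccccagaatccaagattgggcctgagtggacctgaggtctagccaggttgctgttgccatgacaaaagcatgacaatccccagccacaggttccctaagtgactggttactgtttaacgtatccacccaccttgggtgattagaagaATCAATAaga
Hnf4a downstream start: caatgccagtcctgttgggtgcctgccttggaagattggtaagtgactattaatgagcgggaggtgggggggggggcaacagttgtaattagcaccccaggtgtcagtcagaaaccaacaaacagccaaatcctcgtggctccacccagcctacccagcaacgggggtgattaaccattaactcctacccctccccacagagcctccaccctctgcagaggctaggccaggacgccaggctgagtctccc
Hhex: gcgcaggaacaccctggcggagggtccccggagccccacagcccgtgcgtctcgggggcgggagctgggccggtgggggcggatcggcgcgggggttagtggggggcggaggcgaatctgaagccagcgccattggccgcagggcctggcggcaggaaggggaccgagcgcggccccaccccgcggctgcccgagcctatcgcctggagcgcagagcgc
Prox1 downstream start: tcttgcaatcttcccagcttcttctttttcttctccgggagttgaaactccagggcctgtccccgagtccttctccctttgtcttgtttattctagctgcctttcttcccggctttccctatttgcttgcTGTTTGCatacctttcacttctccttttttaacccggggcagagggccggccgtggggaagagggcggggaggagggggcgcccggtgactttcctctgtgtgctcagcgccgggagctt
Nr5a2 upstream start: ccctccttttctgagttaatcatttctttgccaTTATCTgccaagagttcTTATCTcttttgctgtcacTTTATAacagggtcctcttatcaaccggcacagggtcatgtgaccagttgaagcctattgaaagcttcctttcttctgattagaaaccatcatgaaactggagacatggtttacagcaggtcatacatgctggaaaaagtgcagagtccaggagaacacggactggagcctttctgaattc

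The upstream start of Hnf4a had the Onecut word, found in 1.86% of the 32851 windows of all genes, joined to a GATA word, whose last bases lie past the printed stretch. Of the 9 windows, 1 held a forkhead word, TGTTTGC at 120 bases before the downstream start of Prox1, and this word was in 4.3% of all windows. The 1 Prox1 transcript that was counted begins at 190170714, near the upstream start and not at this one. The window before the upstream start held a TATA word at 34 bases and no forkhead word. The window before the annotated start of the counted Hnf4a transcript held none of the searched words. That of Hhex held none either and was 76.0% G and C, against a median of 52.4% over all windows. The upstream start of Nr5a2 held 2 GATA words and a TATA word that lay 181 bases from the start. Over all windows the GATA word was in 9.99% and the TATA word in 12.4%. A match to a word is a description of the letters and not a binding site.

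The 14 libraries held 14142788 to 27278237 expected counts, so that 3 counts in a library corresponded to 0.11 to 0.212 CPM (counts per 1000000). Foxa2 checked the labels. It was at 34.81, 54.47 and 58.64 TPM (transcripts per 1000000) in d3con, at 0.11 to 0.19 TPM in d3ko and at 0.07 to 0.14 TPM at day 0. In the doxycycline series it was at 2.01 and 2.99 TPM in d2-FVFn and at 159.81 and 168.57 TPM in d2-FVFp. All 6 definitive endoderm markers (Sox17, Cxcr4, Cer1, Gsc, Lhx1 and Eomes) were above 0.1 TPM in both day 3 groups, and their summed level was 1055.4 to 1178.8 TPM in d3con and 47.1 to 405.9 TPM in d3ko. Of the 6 hepatocyte markers Alb was at 0 in all 14 libraries and Afp at 0 in all day 0 and day 3 libraries. The summed pluripotency markers stood apart in 1 d3ko library, with 2690.3 TPM in replicate 2 against 15550.4 and 17520.0 TPM in replicates 1 and 3 and 13896.1 to 15780.9 TPM at day 0. Most of these sums was Dppa5a. In bulk RNA, fewer cells that make a transcript and less transcript per cell cannot be told apart.

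A gene was tested when at least 2 libraries of a fit reached 1 CPM, and was called when edgeR's quasi-likelihood test gave a Benjamini-Hochberg adjusted p under 0.05 with a log2 fold change over 1 in size. Hnf4a, Hhex, Prox1 and Nr5a2 passed the filter in the day 0 and day 3 libraries, and Hhex, Prox1, Nr5a2 and Cebpa in the doxycycline libraries. At day 0 and day 3, Hnf4a and Prox1 passed only through day 3 libraries, of either genotype, and in the doxycycline libraries Prox1 and Cebpa passed only through d2-FVFp, so passing the filter already required a difference over time or between the sorted groups. From day 0 to day 3 in the control cells Hhex, Hnf4a and Prox1 were called higher and Nr5a2 lower, while 20.6% of all 13899 tested genes were called higher and 14.6% lower. In the ko cells Prox1 alone was called over the same 3 days (11.6% of genes called higher and 5.72% lower). Between the genotypes at day 3, Hhex was called lower and Nr5a2 higher in d3ko (3.51% of genes called lower and 4.75% higher). The first and last of these comparisons share the 3 d3con libraries, and the second and last the 3 d3ko libraries.

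**Figure D1:**
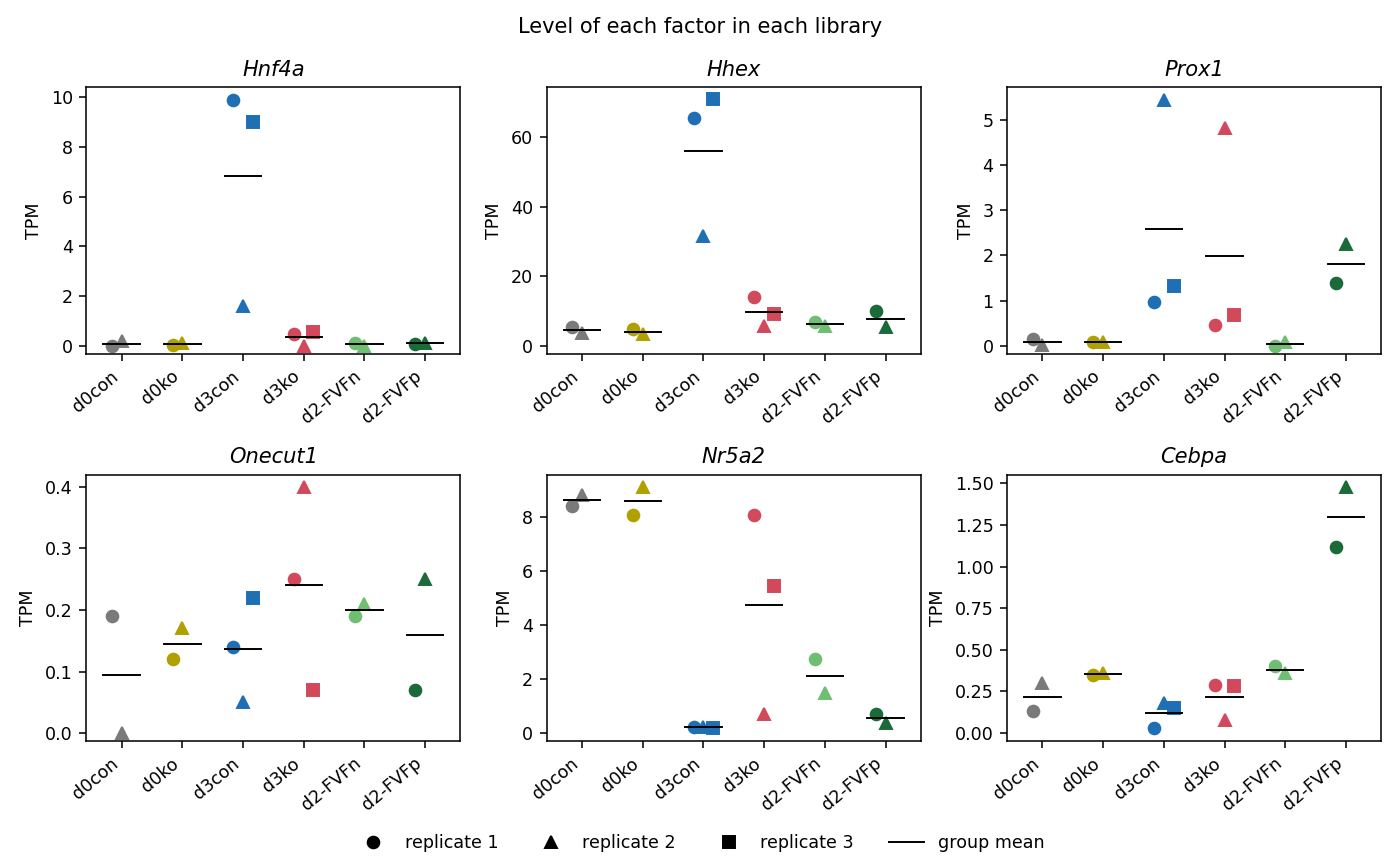
TPM of each factor (y axis, linear, its own scale in each panel) in the 14 libraries, by group, with symbols for the replicate number and a line for the group mean. Hhex and Hnf4a were highest in d3con, Prox1 was highest in replicate 2 of d3con and d3ko, Nr5a2 was high at day 0 and in replicates 1 and 3 of d3ko, Cebpa passed 1 TPM in d2-FVFp alone, and Onecut1 stayed at or under 0.4 TPM.

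Hhex, the earliest acting of the liver factors, had the highest level of the 6 at day 3. It was at 65.40, 31.60 and 70.91 TPM in replicates 1, 2 and 3 of d3con, against 5.33 and 3.78 TPM in d0con. In d3ko it was at 13.95, 5.64 and 9.16 TPM, against 4.79 and 3.28 TPM in d0ko. All d3con libraries lay above all d3ko libraries, and within each genotype all day 3 libraries lay above both day 0 libraries. In the controls Hhex rose 10.67-fold over the 3 days (edgeR log2 fold change 3.42 ± 0.52 SE, adjusted p = 0.000958). In the ko cells the edgeR log2 fold change was 1.08 ± 0.47 SE (adjusted p = 0.11). With a block for replicate number or for clone it was 0.92 or 0.88 (edgeR adjusted p = 0.0461 and 0.0374), under the size needed for a call. Without replicate 2 of d3ko, the lowest library, this rise was called as well (1.35, edgeR adjusted p = 0.0436). At day 3 Hhex was 5.855-fold lower in d3ko than in d3con (edgeR log2 fold change -2.55 ± 0.42 SE, adjusted p = 0.0116). The 3 d3con libraries held 111.5, 90.8 and 130.2 Hhex transcripts for each 100 Foxa2 transcripts, so the library with the least Foxa2 also had the least Hhex. The call between genotypes was lost in 5 of 18 alternatives. Among these were all 3 fits in which each clone entered a day 3 group once. With edgeR the adjusted p was 0.053 when only the 6 day 3 libraries were fitted, 0.0637 without replicate 3 of d3con, 0.105 with replicates 1 and 3 summed, and 0.126 and 0.138 without replicate 1 or replicate 3 of both groups.

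Hnf4a, the nuclear receptor of hepatocytes, went from near the detection limit to a moderate level in the control cells. It was at 9.91, 1.62 and 9.01 TPM in d3con, or 514, 75 and 494 counts, against 0 and 8 counts in d0con. In d3ko it had 19, 0 and 36 counts (0.48, 0 and 0.55 TPM), and in d0ko 1 and 7 counts. Replicate 2 had the lowest value in both day 3 groups, and its 0 counts in d3ko allow a level of up to 0.168 CPM. The rise in the controls was called, at an edgeR log2 fold change of 6.09 ± 1.66 SE and an adjusted p of 0.0137. Its size rests on the few day 0 counts. Without replicate 1 of d0con, which had 0 counts, the estimate was 5.06 and was not called (edgeR adjusted p = 0.087), and without replicate 2 it was 11.44 (edgeR adjusted p = 0.0349).

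Between the genotypes at day 3 all d3con values of Hnf4a lay above all d3ko values, and the log2 fold change of d3ko over d3con was -4.30 (SE 1.21). The edgeR adjusted p of 0.0537 missed the threshold. It passed in 8 of 18 alternatives, among them DESeq2 (adjusted p = 0.0489). Leaving out replicate 2 of both groups also passed (log2 fold change -4.20, edgeR adjusted p = 0.00532). That fit left a single clone in each day 3 group, so its p-value does not measure the spread between clones. The highest value was 0.275, without replicate 1 of both groups. Markers of visceral and primitive endoderm, a tissue that also makes Hnf4a, were read beside it. All 9 of them were above 0.1 TPM in d3con and in d3ko. Their summed level was 1477.5, 285.7 and 1214.6 TPM in d3con against 123.4 to 150.9 TPM in d3ko and 117.6 to 279.1 TPM at day 0. This difference was carried by Pga5, at 744.2 TPM ± 514.7 in d3con against 2.39 TPM ± 1.7 in d3ko, and by Cited1, at 121.8 TPM ± 72.1 against 13.2 TPM ± 5.97 (SD, n = 3 each). Without Pga5 the d3con libraries had 332.6, 122.0 and 290.5 TPM against 123.0 to 147.4 TPM in d3ko, so the groups overlapped. Other markers of the list did not follow Hnf4a, with mean levels of 1.21 and 4.86 TPM in d3con and d3ko for Sox7, 13.4 and 26.0 TPM for Rhox5, 5.91 and 6.06 TPM for Dab2 and 1.5 and 1.38 TPM for Amn. The part of these cells in the Hnf4a values was not tested.

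Nr5a2, the factor shared by ES cells and liver, moved the other way. It was at 8.42 and 8.83 TPM in d0con and at 0.23, 0.23 and 0.20 TPM in d3con, which is 9 or 10 counts in each library. In the ko cells it was at 8.07 and 9.13 TPM at day 0 and at 8.09, 0.70 and 5.43 TPM at day 3. In d3ko replicates 1 and 3 thus kept 94.1% and 63.1% of the mean of d0ko, replicate 2 kept 8.14%, and the 3 d3con libraries kept 2.32% to 2.67% of the mean of d0con. All d3ko libraries lay above all d3con libraries.

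The fall in the controls was called (edgeR log2 fold change -5.47 ± 0.82 SE, adjusted p = 0.000937) in all 15 alternatives that were run. In the ko cells the edgeR log2 fold change was -1.01 ± 0.69 SE (adjusted p = 0.292). At day 3 Nr5a2 was 21.35-fold higher in d3ko than in d3con (edgeR log2 fold change 4.42 ± 0.77 SE, adjusted p = 0.0134). This call was lost in 7 of 18 alternatives. Among these were all 3 fits in which each clone entered a day 3 group once. With edgeR the adjusted p was 0.0585 when only the 6 day 3 libraries were fitted, 0.0598 and 0.0735 without replicate 1 or replicate 3 of d3con, 0.123 with replicates 1 and 3 summed, and 0.147 and 0.146 without replicate 1 or replicate 3 of both groups. With limma on log2(TPM + 1) the adjusted p was 0.0525. The tables listed Nr5a2 with the same length, 3635 bases over 2 transcripts, in all libraries and so did not separate its 2 starts.

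The markers of pluripotent cells followed Nr5a2 over the libraries only in part. All 8 of them, among them Pou5f1, Nanog, Sox2 and Zfp42, were above 0.1 TPM in every group, and their sum was 566.3 to 989.6 TPM in d3con against the d3ko values given above. Without Dppa5a the other 7 markers summed to 129.0, 589.7 and 121.6 TPM in d3con and to 1350.2, 823.8 and 1977.1 TPM in d3ko, all below the 2374.2 to 2581.1 TPM of the day 0 libraries. Replicate 2 was again the lowest of d3ko, and all d3ko libraries lay above all d3con libraries. The sum was highest in replicate 3 of d3ko, whereas Nr5a2 was highest in replicate 1. Within d3con the 7 markers were highest in replicate 2, while Nr5a2 was at 0.20 to 0.23 TPM in all libraries of the group. The part of pluripotent cells in the difference of Nr5a2 between genotypes was not tested.

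**Figure D2:**
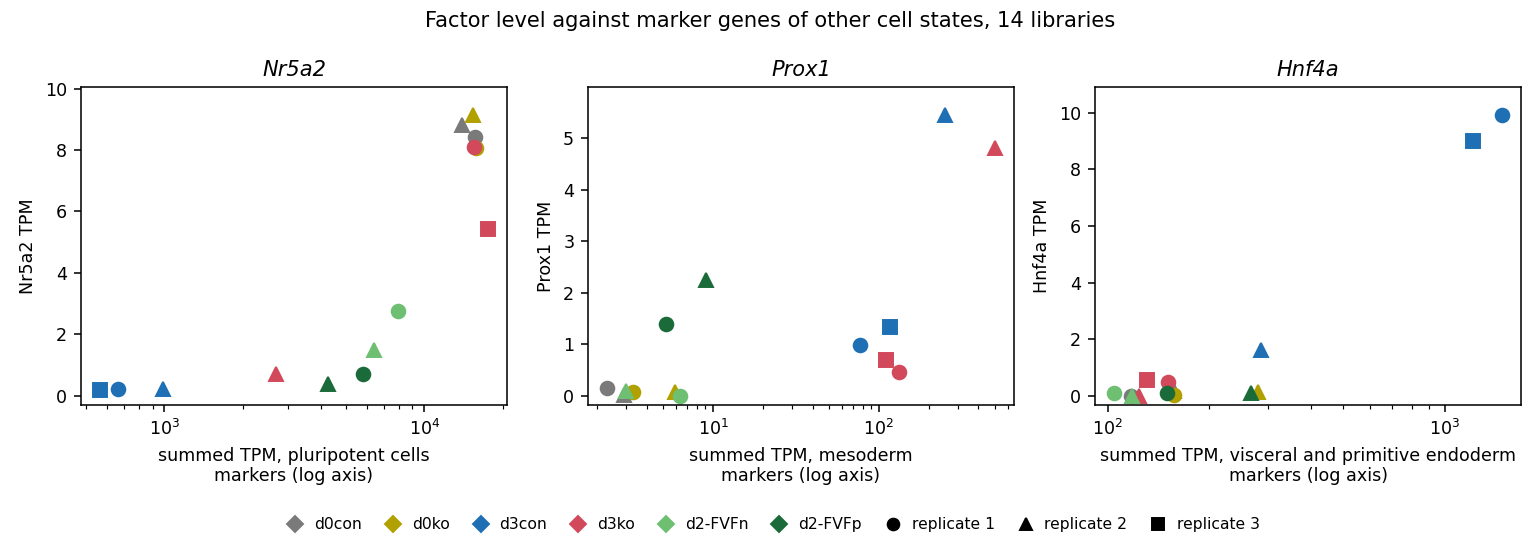
Level of Nr5a2, Prox1 and Hnf4a (y axes, TPM) against the summed TPM of markers of pluripotent cells, mesoderm, and visceral and primitive endoderm (x axes, log scale) in the 14 libraries, coloured by group with a symbol for the replicate number. Replicates 1 and 3 of d3ko lie with the day 0 libraries in the Nr5a2 panel, replicate 2 of both day 3 groups lies apart in the Prox1 panel, and replicates 1 and 3 of d3con lie apart in the Hnf4a panel.

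Prox1, the factor of liver bud migration, rose in both genotypes. It was at 0.98, 5.45 and 1.33 TPM in d3con and at 0.47, 4.82 and 0.69 TPM in d3ko, against 0.02 to 0.15 TPM (1 to 7 counts) in the 4 day 0 libraries. All day 3 libraries lay above all day 0 libraries, the 2 day 3 groups overlapped, and replicate 2 was the highest of both. In edgeR the log2 fold change was 4.63 ± 1.40 SE in the control cells (adjusted p = 0.0208) and 4.40 ± 1.37 SE in the ko cells (adjusted p = 0.0388). Both rest on few counts at day 0. The first was not called in 3 of 15 alternatives, without replicate 1 or 2 of d0con (log2 fold changes 6.42 and 3.89, edgeR adjusted p = 0.0627 and 0.127) and with limma on log2(TPM + 1) (1.52, adjusted p = 0.0769). The second was not called in 6 of 15, without replicate 1 or 2 of d0ko or replicate 2 of d3ko (edgeR adjusted p = 0.19, 0.182 and 0.0748), with limma at both pseudocounts (adjusted p = 0.196 and 0.0613) and when only these groups were fitted (edgeR adjusted p = 0.0713).

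Between the genotypes at day 3 Prox1 had an edgeR log2 fold change of -0.38 ± 0.93 SE (adjusted p = 0.832). Without replicate 2 of d3con it was 0.76 and without replicate 2 of d3ko it was -2.10 (edgeR adjusted p = 0.651 and 0.0931), so its direction turned on the library left out. The mesoderm markers were also highest in these libraries. All 7 were above 0.1 TPM in every group, and their sum was 251.0 TPM in replicate 2 of d3con against 77.0 and 116.4 TPM in the others, and 501.3 TPM in replicate 2 of d3ko against 133.4 and 109.9 TPM. The 8 markers of endothelium, where Prox1 marks the lymphatic branch, summed to 119.2 TPM in replicate 2 of d3con and 72.0 TPM in replicate 2 of d3ko, the lowest of each group. Part of the list was also high in ES cells, with Egfl7, Pecam1 and Esam at 51.8, 36.2 and 27.3 TPM in d0con. In d3ko the summed definitive endoderm markers were also highest in replicate 2, at 405.9 TPM against 131.3 and 47.1 TPM. In d3con they were lowest in replicate 2, at 1055.4 TPM against 1170.7 and 1178.8 TPM. The part of mesoderm, endothelium or definitive endoderm in the Prox1 values was not tested. Replicate 2 came from another clone than replicates 1 and 3 in both genotypes, so within a day 3 group clone and library cannot be told apart.

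Onecut1 and Cebpa, which act later in liver development, had few counts at day 0 and day 3. Onecut1 had 0 to 7 counts in each of the 14 libraries and never passed 0.4 TPM. Cebpa had 4 and 8 counts in d0con, 12 and 13 in d0ko, 1, 5 and 5 in d3con and 7, 2 and 11 in d3ko. Both Cebpa values of d0ko lay above all those of d0con and d3ko. Neither gene was tested in these libraries, and counts this low limit what can be said of differences between their groups.

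At day 0 no member was called between the genotypes. The log2 fold changes of d0ko over d0con were -0.35 for Hnf4a (SE 1.88), -0.21 for Hhex (SE 0.51), -0.15 for Prox1 (SE 1.56) and -0.04 for Nr5a2 (SE 0.76). With edgeR none of the 13899 tested genes was called (0.0%), and 195 had an unadjusted p under 0.05. DESeq2 called 1 gene, which was not a member. The genotype by day interaction, which asks whether the change over 3 days differed between genotypes, also called no gene with edgeR (0.0%), not even Foxa2 (edgeR adjusted p = 0.0544). Its estimates were 4.46 for Nr5a2 (SE 1.09, edgeR adjusted p = 0.162), -2.34 for Hhex (SE 0.65, edgeR adjusted p = 0.197), -3.95 for Hnf4a (SE 2.27) and -0.23 for Prox1 (SE 1.89). DESeq2 called 566 genes in this interaction, among them Hhex and Nr5a2, and edgeR had 1840 genes at an unadjusted p under 0.05. Without replicate 2 of d3ko, the interaction of Nr5a2 was called by edgeR as well (4.97, adjusted p = 0.000273).

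**Figure D3:**
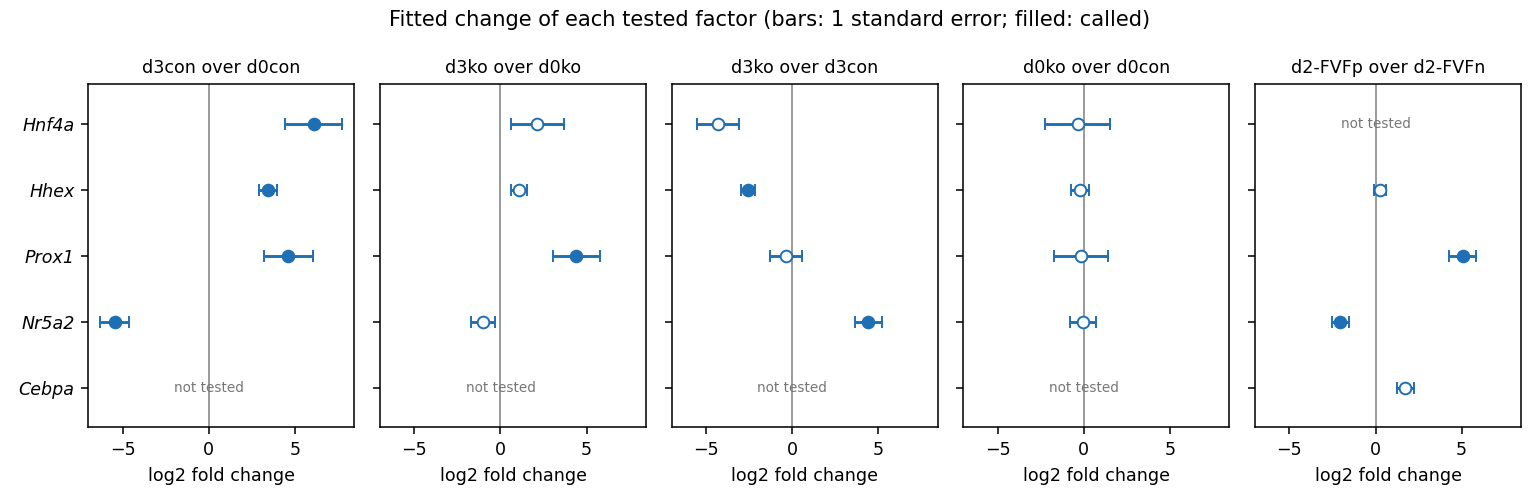
Log2 fold change of each tested factor in 5 comparisons (x axis) with bars of 1 standard error, filled where the change was called. Hhex and Nr5a2 are filled in both the control time course and the comparison of genotypes at day 3, Prox1 is filled in both time courses and in the doxycycline series, and all day 0 values lie within 1 standard error of 0.

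In ES cells with forced Foxa2, the doxycycline series, Prox1 was called higher and Nr5a2 lower in d2-FVFp, where 6.96% of 12943 genes were called higher and 1.47% lower. Prox1 had 0 and 4 counts in d2-FVFn and 43 and 82 counts (1.39 and 2.25 TPM) in d2-FVFp. The edgeR log2 fold change was 5.06 ± 0.79 SE (adjusted p = 0.00864), and the gene was called in all 8 alternatives in which it was tested. With a filter, Prox1 was tested only through its d2-FVFp libraries, and it dropped out untested when either of these was left out. The agreement of the alternatives is thus limited by the filter. The size of the Prox1 change is uncertain, as the estimate was 4.23 without replicate 1 and 8.96 without replicate 2 of d2-FVFn. Nr5a2 was at 2.76 and 1.5 TPM in d2-FVFn and at 0.70 and 0.38 TPM in d2-FVFp. Its groups did not overlap, and the edgeR log2 fold change was -2.04 ± 0.51 SE (adjusted p = 0.0347). That call was lost in 4 of 10 alternatives, without replicate 1 of d2-FVFn (edgeR adjusted p = 0.172), without replicate 2 of d2-FVFp (edgeR adjusted p = 0.0865) and with limma at both pseudocounts (adjusted p = 0.084 and 0.0827). The summed pluripotency markers were 7949.2 and 6410.1 TPM in d2-FVFn and 5795.3 and 4258.8 TPM in d2-FVFp. Without Dppa5a the sums were 2489.4 and 2247.0 TPM in d2-FVFn and 2046.5 and 1628.7 TPM in d2-FVFp. Klf4 and Tfcp2l1 had higher means in d2-FVFp (11.2 and 15.1 TPM) than in d2-FVFn (4.42 and 11.6 TPM), and the other markers had lower ones. The part of these markers in the Nr5a2 values was not tested.

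Cebpa had 9 and 10 counts in d2-FVFn and 22 and 34 counts (1.12 and 1.48 TPM) in d2-FVFp, the 2 highest values of the gene in the series. The log2 fold change was 1.72 (SE 0.49) and the edgeR adjusted p of 0.0516 missed the threshold. Over 8 alternatives the adjusted p ran from 0.00986 to 0.167. It passed in 2 of them, a block for replicate number in edgeR (0.00986) and no filter on low counts (0.0361), and was 0.117 and 0.121 with limma, 0.145 and 0.163 without a d2-FVFn library and 0.167 with DESeq2. Hhex was at 6.75 and 5.59 TPM in d2-FVFn and at 10.06 and 5.35 TPM in d2-FVFp, so the groups overlapped (edgeR log2 fold change 0.27 ± 0.35 SE, adjusted p = 0.632), and without replicate 1 of d2-FVFp the estimate was -0.23. Hnf4a had 4 and 0 counts in d2-FVFn and 3 and 4 in d2-FVFp and was not tested. Foxa2 itself was higher in d2-FVFp than in d3con. For each 100 Foxa2 transcripts d2-FVFp held 5.97 and 3.35 of Hhex and 0.0534 and 0.0626 of Hnf4a, against 90.8 to 130.2 and 4.65 to 16.9 in d3con. Prox1 was lower as well (0.825 and 1.41 against 1.67 to 15.7). Nr5a2 and Onecut1 overlapped, and Cebpa was higher in d2-FVFp (0.664 and 0.926 against 0.0512 to 0.517). These 2 settings differ in cell line, culture, time and source of Foxa2, an induced transgene in d2-FVFp and 1 remaining allele in d3con. The values stand side by side without a test.

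Over the 6 groups, the mean level fell from d3con to d3ko without overlap for Hhex and Hnf4a. For Hhex the next groups in order, d3ko, d2-FVFp and d2-FVFn, each overlapped the next, and for Hnf4a so did all the remaining groups. For Prox1 d3con, d3ko and d2-FVFp each overlapped the next and lay above the other 3 groups. For Nr5a2 d0con, d0ko, d3ko and d2-FVFn each overlapped the next, d2-FVFp lay below d2-FVFn but met the range of d3ko at 0.70 TPM, and d3con lay below all other groups. For Cebpa d2-FVFp lay above the rest, and for Onecut1 each group overlapped the next.

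Factors that work with these 6 were read from 21 further hepatic transcription factors, of which 14 were tested at day 0 and day 3. In d3con over d0con, 9 were called higher and 2 lower (20.6% and 14.6% of all genes), with a median log2 fold change of 2.11 against 0.07 over all genes. In d3ko over d0ko, 4 were called higher and none lower (11.6% and 5.72% of all genes), and in d3ko over d3con 1 was higher and 3 lower (4.75% and 3.51%), with medians of 0.63 and -0.05 against 0.07 and 0.02 over all genes. The lower ones were led by Foxa1, a close relative of Foxa2, at 19.0 TPM ± 10.3 in d3con against 0.103 TPM ± 0.0306 in d3ko (SD, n = 3 each). Foxa3, another relative, was at 47.0 TPM ± 32.0 against 3.02 TPM ± 1.62, and Rxra, the dimer partner of many nuclear receptors, at 7.88 TPM ± 0.777 against 2.68 TPM ± 0.652. The higher one was Tbx3, which hepatoblasts use to keep growing, at 5.64 TPM ± 0.997 in d3con and 54.5 TPM ± 30.9 in d3ko. At day 0 Tbx3 was at 17.5 TPM in d0con and 28.9 TPM in d0ko. Gata4 and Gata6, zinc finger factors of early endoderm and heart, were called higher at day 3 in both genotypes, with log2 fold changes of 6.83 and 7.64 in the controls and 4.97 and 6.16 in the ko cells. Hlx, a homeobox factor of the mesenchyme around the liver, was called in both as well (4.61 and 5.46). Cebpg, a relative of Cebpa, was the remaining factor called higher in the ko cells (1.35). For this and the later lists, a gene with 0 counts in a group passed the filter only through other groups. Examples were Ambp, F10 and Pax9 in d0con and Fgb in d2-FVFn. The list counts and medians set beside all genes thus depend in part on the filter and are no test of the lists.

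In the doxycycline series 12 of the 21 factors were tested and 5 were called higher, none lower (6.96% and 1.47% of all genes). Gata6 went from 0.145 TPM ± 0.0495 to 5.72 TPM ± 1.43 (SD, n = 2 each), Gata4 from 0.9 to 5.61 TPM and Xbp1, a factor of secretory cells, from 41.4 to 165.7 TPM. Tbx3 went from 4.62 to 17.5 TPM. Foxa1 was at 0.3 TPM in d2-FVFp, under its level in d3con.

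Of 16 factors of the foregut and pancreas, 9 were tested at day 0 and day 3. In d3con over d0con 6 were called higher and 2 lower, against 20.6% and 14.6% of all genes. In d3ko over d0ko, where 11.6% of all genes were called higher and 5.72% lower, only Sox9, a factor of progenitors and ducts, was called (edgeR log2 fold change 6.24 ± 0.71 SE, adjusted p = 0.000909). In d3ko over d3con Pax9, Irx3 and Otx2 were called lower and Nkx6-2 higher (3.51% and 4.75% of all genes), with a median log2 fold change of -2.19 against 0.02 over all genes. Irx3 was at 31.4 TPM ± 20.1 in d3con and 1.68 TPM ± 2.01 in d3ko, and Otx2, a factor of anterior tissues, at 327.8 TPM ± 113.8 and 72.6 TPM ± 50.9. Nkx6-2 was at 25.4 TPM in d0con and 9.66 TPM in d0ko, against 0.7 TPM in d3con and 7.75 TPM in d3ko. In the doxycycline series Sox9 (log2 fold change 6.27) and Irx3 (2.11) were called higher and Otx2 lower (-1.06) of 7 tested (6.96% and 1.47% of all genes). Ptf1a was at 0 in all libraries, and Pdx1, the pancreas factor, had a group mean of at most 0.67 TPM.

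The genes that these factors control in the liver were read from 25 hepatic target genes, of which 10 were tested at day 0 and day 3 and 11 in the doxycycline series. In d3con over d0con 6 were called higher and 2 lower (20.6% and 14.6% of all genes), led by Ambp, a plasma protein gene at 6.84 TPM ± 6.54 in d3con and 0 in both d0con libraries (at least 27.9-fold higher, with 3 counts per library as the floor), and the clotting factor gene F10 (at least 23.9-fold higher). Both were called lower in d3ko, with Ambp at 0.03 TPM and F10 at 0.137 TPM. The iron carrier gene Trf and the apolipoprotein gene Apoa2 were called higher in d3ko than in d3con (log2 fold changes 4.29 and 2.52). Trf was at 6.88 TPM in d0con and 11.1 TPM in d0ko, against 0.333 TPM in d3con and 6.44 TPM in d3ko. Apoa2 was at 25.3, 22.2, 2.42 and 13.9 TPM in the same order, so neither mean in d3ko was above its day 0 means. Rbp4, the retinol carrier, was called higher at day 3 in both genotypes (5.56 and 3.17).

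In d2-FVFp 5 target genes were called higher and none lower (6.96% and 1.47% of all genes), with a median log2 fold change of 1.34 against 0.01 over all genes. Fgb, which encodes the beta chain of fibrinogen, was at 97.15 and 207.87 TPM in d2-FVFp and at 0 in both d2-FVFn libraries, at least 700.6-fold higher. It made up nearly all of the summed hepatocyte markers there, since the other 5 markers reached 3.63 and 3.85 TPM. The genes of the partner chains did not share its level, with Fga at 0 TPM and Fgg at 1.48 TPM in d2-FVFp. In d3con Fgb was at 0.06 TPM or less. Apoa1 (log2 fold change 4.41), Rbp4 (2.95) and Apob (1.94) were also called.

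**Figure D4:**
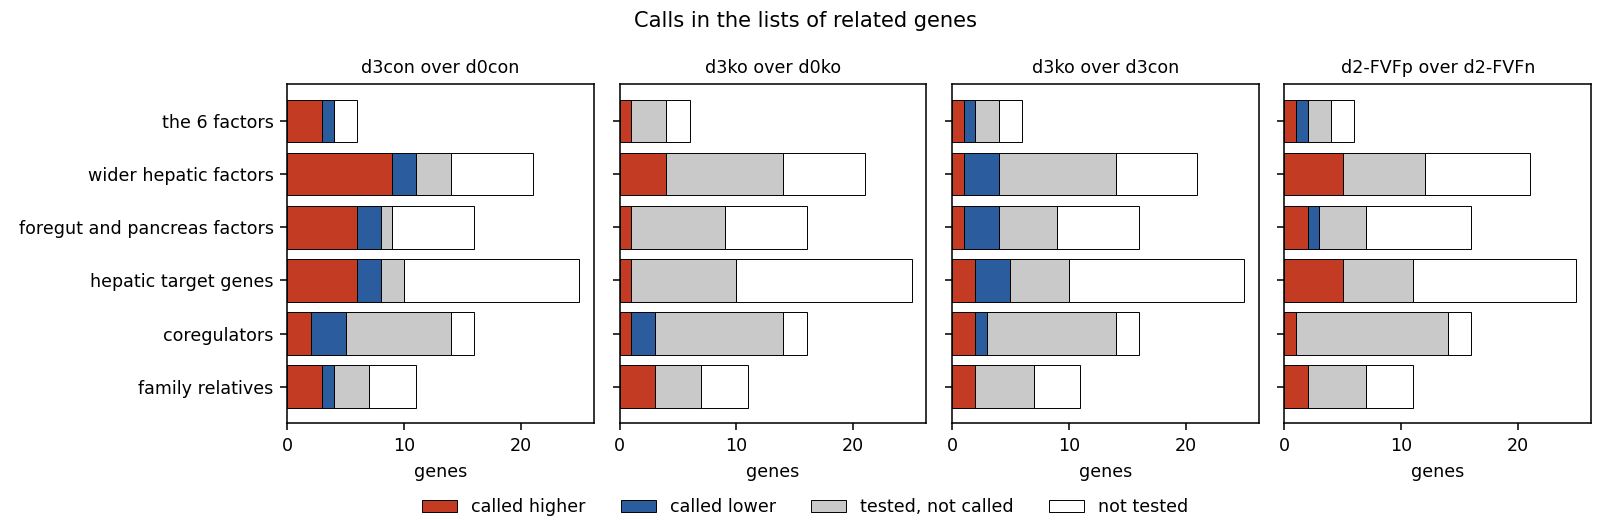
Number of genes (x axis) called higher, called lower, tested but not called, and not tested in each list, for 4 comparisons. In d3con over d0con 9 of the 14 tested hepatic factors are called higher, against 4 of 14 in d3ko over d0ko, and in the doxycycline series 5 of 12 hepatic factors and 5 of 11 target genes are called higher.

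The 3 genes whose pattern was most like each factor were found over the 14 libraries as the smallest root-mean-square difference in log2(TPM + 1), each gene centred on its own mean, among 14339 genes. For Hnf4a they were Sgpp2, Angpt2 and Gckr (0.22, 0.24 and 0.25), against a root-mean-square of 1.14 for Hnf4a itself. Gckr, the regulator of glucokinase, was at 9.5 TPM in d3con and at most 0.127 TPM elsewhere. For Hhex they were Prokr1, Flrt3 and Rnf157 (0.43 to 0.44), for Prox1 Tapbp, Piezo2 and Scara3 (0.26 to 0.33), and for Nr5a2 C330046G13Rik, Gsta3 and Tfeb (0.36 to 0.4). For Cebpa, which hardly varied (0.34), they were BC061212, Gm7978 and Foxd2, and the first 2 of these have the same mean in every group. With 0.1 in place of 1 as the pseudocount, 1 of 3 names was kept for each of Hnf4a, Hhex, Prox1 and Nr5a2 and none for Cebpa. Over the 10 day 0 and day 3 libraries alone, 2 of 3 names were kept for Hnf4a and none for Hhex, Prox1 and Nr5a2, so the names depend on the scale and on the libraries used. Among the members themselves Hnf4a and Hhex were the closest pair (0.45), and Hhex and Nr5a2 the farthest (2.30).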

How the data were processed

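RNA was sequenced in 14 libraries. Per the labels and the study's methods, the authors aligned reads with STAR to mm10 (GRCm38) and quantified genes with RSEM (versions not given in the sources used here). As deposited, an expected count is the number of reads RSEM assigned to a gene, with no scaling. The authors' TPM and FPKM are relative to gene length and library size (FPKM was not used here). Lengths in the tables show 75-base reads in replicate 1 of d3con and d3ko and 50-base reads elsewhere.

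Expected counts were rounded, scaled with TMM and tested with edgeR 4.0.16 (R 4.3.3), in 1 fit of 10 day 0 and day 3 libraries (13899 genes) and 1 of 4 doxycycline libraries (12943 genes), p-values being adjusted over all tested genes. The SE was taken as the size of the log2 fold change over the root of its F statistic. The alternatives were DESeq2 1.42.0, limma 3.58.1 on log2(TPM + 1) and log2(TPM + 0.1), median-of-ratios scaling, no filter, only the 2 groups compared, a replicate block, replicates 1 and 3 summed, an adjusted p under 0.01 and each library left out. Leaving out 1 replicate number of both day 3 groups and a block for clone were added after seeing the data. Within a genotype, replicate numbers 1 and 2 carry the names of the same clones at both days (from the deposited names and the study's methods). The time courses thus count as paired by clone, which the main fit left out and the blocks took up. Deviations of same-numbered libraries correlated across genes at only -0.044 to 0.057. At day 3 the correlations between genotypes were 0.548, 0.298 and -0.014 for replicates 1, 2 and 3, the first being the 75-base libraries. The main fit did not treat genotypes as paired. With a replicate block 816 genes were called in d3ko over d3con, in place of 1148. The edgeR adjusted p was then 0.0127 for Hhex, 0.035 for Nr5a2 and 0.0739 for Hnf4a. Scripts were tested on simulated data.

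Members and gene lists were chosen with earlier results of these data known. Named are all 6 members in every library, Foxa2, up to 4 called genes per list with the largest log2 fold change and a mean of at least 1 TPM in the higher group, and the 3 genes most like each member with a mean of at least 1 TPM. Hlx is in the list of hepatic factors and in that of family relatives. Positions are those of RefSeq on GRCm38. Some genes and 1 sequence word of the lists are not reported here, and the list counts leave them out.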

Additional observations from a re-analysis of the deposited data

How the results depend on the processing

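Of the 4 members called in d3con over d0con, 2 were called at an adjusted p under 0.01, and 2 to 4 when a library was left out. The 1 call in d3ko over d0ko became 0 at an adjusted p under 0.01, with limma at both pseudocounts (1 and 0.1) and when only those 2 groups were fitted, and was 0 to 1 when a library was left out. The 2 calls in d3ko over d3con became 0 at an adjusted p under 0.01, when only these groups were fitted, when replicates 1 and 3 were summed, and without replicate 1 or replicate 3 of both groups, and were 0 to 3 when a library was left out. The interaction went from 0 calls to 2 with DESeq2, and to 0 to 1 when a library was left out. In the doxycycline series the 2 calls became 1 at an adjusted p under 0.01 and with limma at both pseudocounts, and 0 to 2 when a library was left out, since without a d2-FVFp library Prox1 and Cebpa no longer passed the filter. For the other changes the cause was not tested.

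With a library left out, the log2 fold change of Prox1 ranged from -2.10 to 0.76 in d3ko over d3con and from -2.02 to 0.90 in the interaction, and that of Hhex from -0.23 to 0.67 in the doxycycline series. In d0ko over d0con the range was -2.29 to 5.0 for Hnf4a, -0.53 to 0.06 for Hhex, -0.88 to 1.64 for Prox1 and -0.11 to 0.02 for Nr5a2, and limma on log2(TPM + 0.1) gave 0.06 for Prox1. All called members in the day 0, day 3 and doxycycline comparisons kept the direction of their change in every alternative in which they were tested. Over all genes the number of calls moved from 2408 to between 667 and 2913 in d3ko over d0ko, from 1148 to between 1 and 2572 in d3ko over d3con, from 0 to at most 32 in d0ko over d0con, from 0 to at most 1118 in the interaction, and from 1091 to between 452 and 1548 in the doxycycline series.

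Fitting the replicate number as a block left 4 members called in d3con over d0con, 1 in d3ko over d0ko, 2 in d3ko over d3con and none at day 0 or in the interaction, and a block for clone left 4 and 1 in the time courses. In the doxycycline series, where the deviations of the 2 pairs correlated at 0.265, the block raised the calls from 2 to 3, through Cebpa. Median-of-ratios scaling moved the median of all genes by at most 0.031 on the log2 scale. Hnf4a and Prox1 at day 0, Cebpa and Onecut1 rest on under 15 counts a library outside d2-FVFp, so depth limits what can be said of them.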

Other observations

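Of 16 coregulators that bind these factors or their kind, 14 were tested. In d3con over d0con 2 were called higher and 3 lower, against 20.6% and 14.6% of all genes. In d3ko over d0ko 1 was higher and 2 lower (11.6% and 5.72% of all genes). In d3ko over d3con 2 were higher and 1 lower (4.75% and 3.51%), and in d2-FVFp 1 was higher and none lower (6.96% and 1.47%). Nr0b1 (DAX1), an ES cell repressor that binds Nr5a2, was at 251.8 TPM in d0con, 161.8 TPM in d0ko, 2.96 TPM ± 1.93 in d3con and 77.1 TPM ± 61.7 in d3ko (SD, n = 3 each at day 3), and it was called lower in the first time course and higher in d3ko than in d3con (log2 fold changes -6.60 and 4.69). Tle4, a Groucho corepressor of the kind Hhex recruits, was called lower at day 3 in both genotypes (-3.88 and -1.92) and higher in d3ko than in d3con (1.61). Its relative Tle2 was called higher in the controls (3.22), lower in d3ko than in d3con (-2.77), and higher in d2-FVFp (2.54), where it was the only one of the 14 called. Trib1, which promotes the breakdown of C/EBP proteins, was called higher in the ko time course (1.51), and Ncoa3, a coactivator, was called lower in both (-1.99 and -1.37).

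Of 11 family relatives of the members, 7 were tested, and in d3con over d0con 3 were called higher and 1 lower (20.6% and 14.6% of all genes). In d3ko over d0ko 3 were called higher (11.6% of all genes), in d3ko over d3con 2 (4.75%) and in d2-FVFp 2 (6.96%). None was called lower in these 3 comparisons. Esrrb, an orphan receptor of ES cells, was called lower in the control time course (log2 fold change -5.11) and higher in d3ko than in d3con (4.68), at 48.6 TPM ± 37.5 against 1.9 TPM ± 0.201. Cux1, a relative of Onecut1, was called higher at day 3 in both genotypes (1.09 and 1.15), as was Rora (3.14 and 2.26), which was also called in d2-FVFp (2.13). Ddit3, a C/EBP relative of the stress response, was called higher in d3ko than in d3con (1.94). The closest relatives Hnf4g and Nr5a1 had group means of at most 0.055 and 0.2 TPM.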
